A study of Mus musculus with 4 samples.

Results

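Small nucleolar RNA (snoRNA) genes were described here in 4T1 cells, a breast cancer line of the mouse, after treatment with recombinant IL-17A (rIL17) or with phosphate-buffered saline (PBS). The members are the rows whose Ensembl identifier has a symbol starting with Snord or Snora and a number, host genes left out: 51 of the 21840 genes in the deposited table, 36 of box C/D type (Snord) and 15 of box H/ACA type (Snora). The group was singled out because Snord72 was higher with IL-17A, so the contrast of rIL17 with PBS is given for these genes as a description: no p is given for any of them, and counts past a threshold stand only beside the share of all genes. RNA of 2 rIL17 and 2 PBS libraries was sequenced, all from cells labelled wild type and epithelial and grown in serum-containing medium. The sources used here give no dose or duration, and do not say that replicate libraries were grown separately, so errors and p-values measure the spread among 4 libraries, which may be technical. The rIL17 libraries held 17911079 and 17715520 reads assigned to genes, and the PBS libraries held 17970104 and 17511450. Values are normalized counts, made by the authors through scaling of each library's reads by 1 factor, and 1 read was worth 0.981 to 1.01 normalized counts. Epithelial marker genes summed to 43234.5 and 45163.1 normalized counts in the rIL17 libraries and to 50891.8 and 54791.4 in the PBS libraries. Krt8 and Krt18 made up most of these sums. The median log2 fold change of the 6 epithelial markers was -0.27, with 5 below 0, Epcam at -0.02 and Krt19 at 0.05. The 2 of 6 leukocyte markers with a row summed to 4.02 and 5.01 in rIL17, against 2.94 and 3.98 in PBS, with Ptprc at 0 in both PBS libraries, and Csf1r at 1.01 and 3.01 in rIL17, against 2.94 and 3.98 in PBS. The 4 of 5 fibroblast markers with a row summed to 2946.4 and 2940.5 in rIL17, against 2407.7 and 2519.8 in PBS. That sum was mostly Pdgfra; the list's median log2 fold change was -0.15, with Pdgfra and Dcn above 0 and Col1a1 and Col1a2 below. The 2 of 3 endothelial markers with a row summed to at most 7.04 in any library, and the part of these differences in the results was not tested.

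SnoRNAs are short nuclear RNAs, most of them cut out of the introns of host genes. Box C/D snoRNAs pair with ribosomal RNA or spliceosomal U6 RNA and direct methylation of the ribose, with fibrillarin as the enzyme, while box H/ACA snoRNAs direct the conversion of uridine to pseudouridine, with dyskerin as the enzyme. Each class is held in a particle with a fixed set of core proteins, bound at the short sequence boxes that give the class its name. The column extraction named in the labels' protocols retains short RNAs poorly, and a read from an unspliced host intron can be counted for the snoRNA inside it, so the levels below are those of reads over the snoRNA genes and not of mature snoRNA.

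The sequences of 5 box C/D members and 2 box H/ACA members are shown because the results turn on them: the 3 furthest above, 1 that was lower in both rIL17 libraries, the most abundant Snord gene and the 2 most abundant Snora genes. They are from GENCODE M21 transcripts on mm10. Capitals mark the leftmost TGATG before the midpoint, the core of box C, and the last CTGA, box D, in Snord genes, and the last ACA within the final 8 bases in Snora genes.
Snord72 (chr15:5118404-5118484, plus strand): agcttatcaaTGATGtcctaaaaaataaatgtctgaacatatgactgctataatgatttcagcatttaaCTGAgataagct
Snord73a (chr3:86138791-86138858, minus strand): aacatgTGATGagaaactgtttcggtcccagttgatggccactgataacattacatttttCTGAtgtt
Snord70 (chr1:59691934-59692020, plus strand): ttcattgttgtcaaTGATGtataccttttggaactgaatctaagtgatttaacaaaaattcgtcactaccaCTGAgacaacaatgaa
Snord35a (chr7:45126346-45126435, minus strand): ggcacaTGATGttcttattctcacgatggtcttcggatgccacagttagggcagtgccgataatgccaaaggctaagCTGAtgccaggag
Snord104 (chr11:106500993-106501062, plus strand): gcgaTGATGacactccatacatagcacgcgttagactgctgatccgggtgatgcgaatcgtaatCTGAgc
Snora57 (chr19:8888538-8888685, minus strand): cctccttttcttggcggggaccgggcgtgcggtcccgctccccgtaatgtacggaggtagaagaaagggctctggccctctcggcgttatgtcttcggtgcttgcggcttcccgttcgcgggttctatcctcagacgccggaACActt
Snora31 (chr14:75847905-75848034, plus strand): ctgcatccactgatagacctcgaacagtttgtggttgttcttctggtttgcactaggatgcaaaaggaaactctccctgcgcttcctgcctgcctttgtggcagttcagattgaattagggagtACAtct

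TGATG before the midpoint with CTGA after it, read on the transcript strand alone, was held by 32 of the 36 Snord sequences (88.9%) and by none of the 15 Snora sequences. ACA within the last 8 bases was held by 2 of the 36 Snord (5.56%) and by 15 of the 15 Snora sequences. Of the other 159 genes that the annotation calls snoRNA but that carry another symbol, 32 (20.1%) held the box C/D pair and 92 (57.9%) the ACA. Box C/D members above the low-count filter had a median length of 86 bases and a median GC content of 48.95%; box H/ACA members had 137 bases and 47.7%.

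Reads over these genes were few. The 51 members took 480 and 473 reads in the rIL17 libraries and 513 and 516 in the PBS libraries. Reads were present in all 4 libraries for 31 members, and 12 members (8 Snord and 4 Snora) had a mean of at least 10 normalized counts. A mean of at least 1 normalized count over the 4 libraries was required for a fold change, and 40 members (26 Snord and 14 Snora) met it. The other 11 were Snord34, Snord37, Snord58b, Snord59a, Snord82, Snord85, Snord90, Snord92, Snord98, Snord118 and Snora20, with at most 3 reads in any library. Snord118 encodes the U8 RNA, which acts in the cutting and folding of the large-subunit ribosomal RNA precursor. It had 0 and 1 reads in the rIL17 libraries and 0 and 1 in the PBS libraries. The lowest mean among the 40 was 1.23 normalized counts and the highest among the 11 was 0.999.

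Snord72, a box C/D gene in an intron of the ribosomal protein gene Rpl37, stood apart from the others. In human cells its counterpart is assigned to a methylation site in 28S ribosomal RNA. Snord72 had 50.3 and 45.1 normalized counts in the rIL17 libraries, against 1.96 and 0.994 in the PBS libraries (50 and 45 reads against 2 and 1). The rIL17 libraries lay close to each other and far above the PBS libraries. The mean was 47.7 ± 3.63 in rIL17 and 1.48 ± 0.684 in PBS (SD, n = 2 each), a ratio of 32.3 with a 95% interval of 10.7 to 159 from counting error alone (exact, from the summed reads). After addition of 1 and a log2 transform, a scale that shrinks the changes of genes with few reads, the log2 fold change was 4.32 (SE 0.39), and 8 of the 18993 genes tested had a larger one. Without any 1 of the libraries it lay between 4.04 and 4.61. The search for annotated transcripts of other genes with at least 90% identity over at least 80% of the length found none for Snord72. Its GC content was 29.6%. The 28 other genes with a GC content within 3 percentage points and a mean of 1 to 100 normalized counts had log2 fold changes with a median of 1.51 and a maximum of 6.86. After a correction of each library for transcript GC content, the log2 fold change of Snord72 was 2.73. The pseudocount also moved the value, to 4.99 with 0.1 and to 3.03 with 5.

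**Figure D1:**
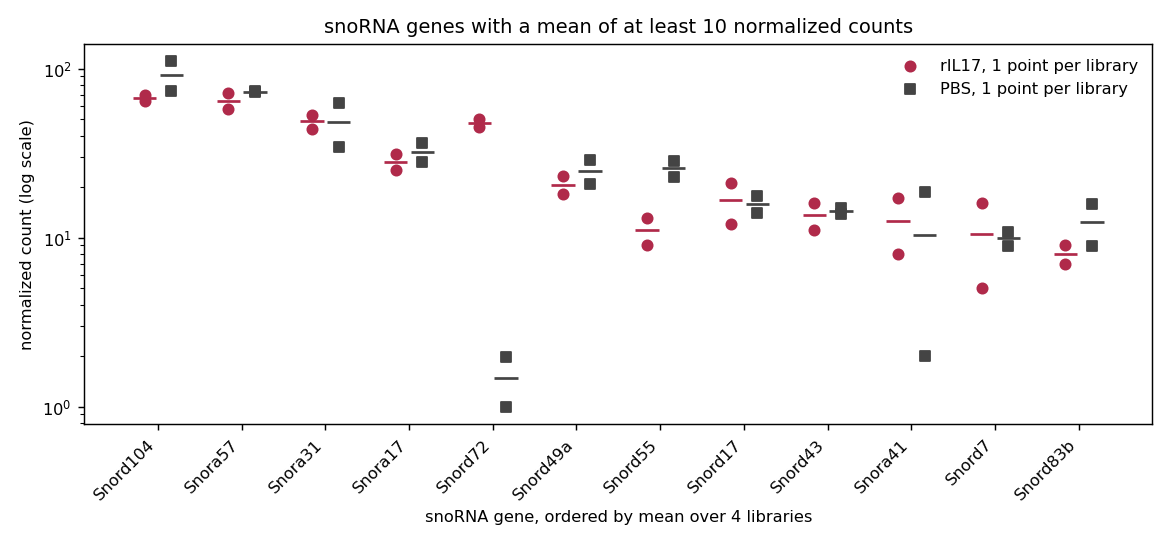
Normalized counts (log scale) of the 12 snoRNA genes with a mean of at least 10, ordered by mean; circles are the rIL17 libraries, squares the PBS libraries, and lines the group means. Snord72 sits at 50.3 and 45.1 in rIL17 and at 1.96 and 0.994 in PBS, and Snord55 lies at 9.05 and 13.0 in rIL17 and at 28.5 and 22.9 in PBS.

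A further 3 box C/D genes had log2 fold changes above 2, all at low counts. Snord73a, in an intron of the ribosomal protein gene Rps3a1, had 3 and 8 reads in the rIL17 libraries and 0 in both PBS libraries. That is 3.73-fold higher when 3 reads over the PBS group are taken as the floor and the rIL17 reads as observed. Snord70, in an intron of Nop58, had 5 and 4 reads in rIL17 and 0 in both PBS libraries, 3.05-fold higher by the same floor. Snord8, in an intron of the chromatin remodeler gene Chd8, is known in human as a guide for U6 RNA. It had 10.1 and 9.03 normalized counts in rIL17, against 3.92 and 0 in PBS. The ratio for Snord8 was 4.86, with a counting interval of 1.61 to 19.5. Snord73a and Snord70 passed the filter through rIL17 alone, so nothing is read from the separation of their groups. The groups did not overlap for any of these 3 genes, and each rests on at most 23 reads. Snord110, in Nop56, is counted with them below only because of scaling: it had 3 reads in each of the 4 libraries.

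At the other end, 6 members had both rIL17 values below both PBS values. Snord55, in human a guide for 28S ribosomal RNA, had 9.05 and 13.0 normalized counts in rIL17, against 28.5 and 22.9 in PBS. Its means were 11.0 ± 2.82 in rIL17 and 25.7 ± 3.95 in PBS (SD, n = 2 each), and the log2 fold change was -1.16 (SE 0.34). This was the lowest value among members with a mean of at least 10. Snord35a, in Rpl13a and likewise a guide for 28S ribosomal RNA in human, had 1.01 and 3.01 normalized counts in rIL17, against 7.85 and 6.96 in PBS. Snord71, in the adaptor-complex gene Ap1g1, had 3.02 and 3.01 in rIL17, against 9.81 and 5.97 in PBS. Snord23, in the ribosome-assembly gene Nop53, had 0 reads in both rIL17 libraries and 3 and 2 reads in the PBS libraries. That is 1.64-fold lower with 3 reads over the rIL17 group as the floor and the PBS reads as observed. Snord23 passed the filter through PBS alone, so nothing is read from the separation of its groups. The remaining 2, Snord104 and Snora57, differed little: their log2 fold changes were -0.43 and -0.19. The log2 fold change of Snord55 kept its sign under every alternative run, from -1.40 to -0.92.

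Among the more abundant box C/D genes, most had overlapping groups. Snord104 had 69.4 and 64.2 normalized counts in rIL17, against 73.6 and 110.4 in PBS, so that the difference came largely from PBS replicate 2 and was -0.14 on the log2 scale without that library. Per 100 bases, Snord104 had the highest level of all members (113 normalized counts, mean over 4 libraries), ahead of Snora57 (46.4) and Snora31 (37.4). Snord49a, in the non-coding gene 2410006H16Rik, had 18.1 and 23.1 normalized counts in rIL17, against 20.6 and 28.8 in PBS. Snord17, in the sorting nexin gene Snx5, had 21.1 and 12.0 in rIL17, against 17.7 and 13.9 in PBS. Snord43, in Rpl3 and in human a guide for 18S ribosomal RNA, had 16.1 and 11.0 in rIL17, against 13.7 and 14.9 in PBS; the annotation files it as a microRNA. Snord7, a guide for U6 RNA in human, had 16.1 and 5.01 in rIL17, against 10.8 and 8.95 in PBS. For Snord17, Snord43 and Snord7 the rIL17 replicates lay further apart than the group means. Snord83b, also in Rpl3, had 9.05 and 7.02 in rIL17, against 15.7 and 8.95 in PBS. The log2 fold changes of Snord88c and Snord89 were -0.09 (SE 0.42) and -0.28 (SE 0.52).

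Among the 14 tested box H/ACA genes, the groups overlapped for all but Snora57 and Snora78. Snora57 had 57.3 and 71.2 normalized counts in rIL17, against 73.6 and 72.6 in PBS. Snora31, in the intron of Tpt1, the gene for a translationally controlled growth protein, had 53.3 and 44.1 in rIL17, against 34.3 and 62.6 in PBS. Snora17 had 25.1 and 31.1 in rIL17, against 36.3 and 27.8 in PBS. The groups overlapped for Snora31 and Snora17, and those of Snora57 were separated by less than the distance between its rIL17 libraries. Snora41, in the elongation factor gene Eef1b2, had 17.1 and 8.02 in rIL17, against 18.6 and 1.99 in PBS, with PBS replicate 2 low. Its log2 fold change of 0.74 (SE 1.00) was 2.10 without PBS replicate 1 and -0.62 without PBS replicate 2. Snora30, in the chromatin remodeler gene Srcap, had the lowest log2 fold change of the class, -1.23 (SE 0.69), with 2.01 and 7.02 normalized counts in rIL17, against 15.7 and 6.96 in PBS. Snora78, in Snhg9, was the single Snora gene above in both rIL17 libraries, with 3 and 6 reads against 2 and 3 in PBS. Its groups were apart only because of scaling, as rIL17 replicate 1 and PBS replicate 2 each had 3 reads. The other tested Snora genes, Snora47, Snora69, Snora21, Snora23, Snora34, Snora2b, Snora62 and Snora43, had log2 fold changes of -0.94 to 0.51 and overlapping groups. Near-identical annotated copies exist for Snora17, Snora21, Snora2b, Snora30, Snora41, Snora43 and Snora57, and for Snord58b, Snord88c, Snord93 and Snord118, so their counts are uncertain.

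**Figure D2:**
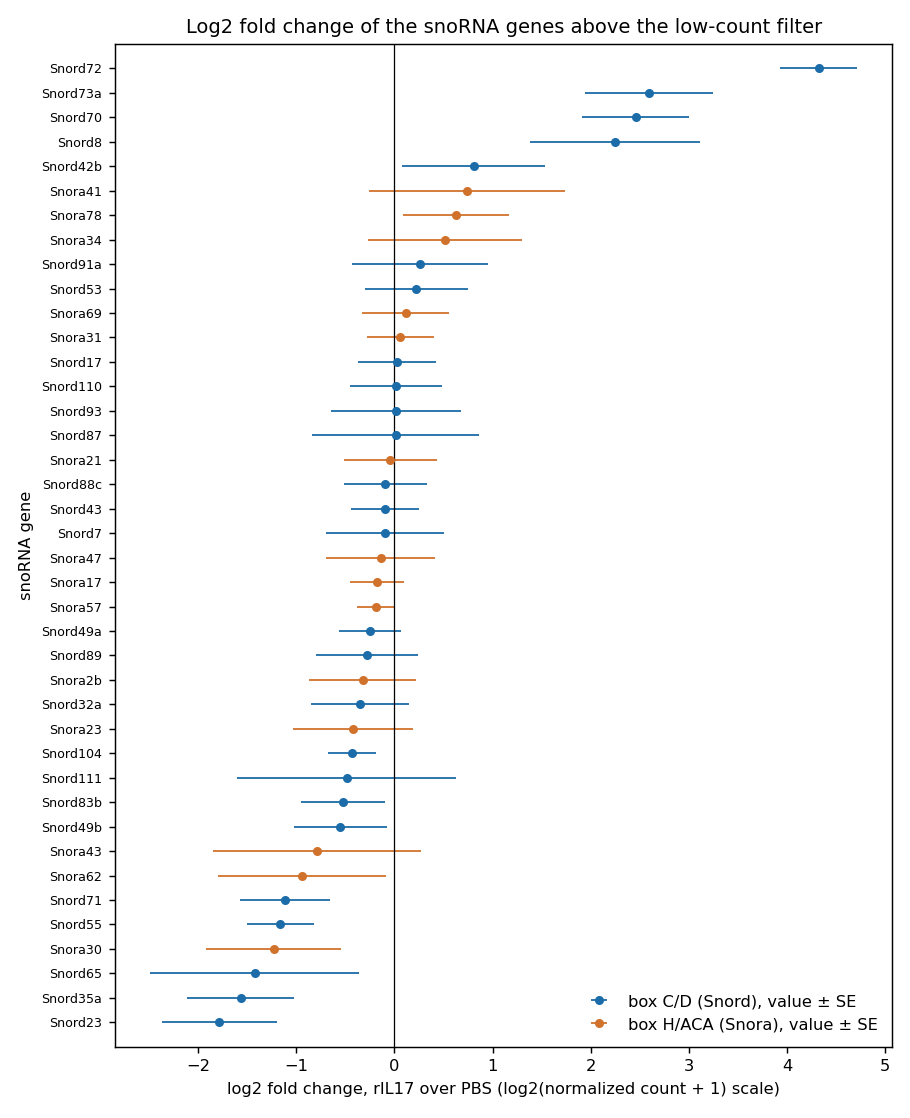
Log2 fold change (rIL17 over PBS) with its SE for the 40 snoRNA genes above the low-count filter, ranked, box C/D in blue and box H/ACA in orange. The 4 highest values, from 2.25 to 4.32, are all Snord genes, and of these Snord72 led to the choice of the group while Snord73a and Snord70 had 0 reads in PBS; the Snora genes lie between -1.23 and 0.74.

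The median log2 fold change was -0.10 for the 26 Snord genes (quartiles -0.51 and 0.18) and -0.16 for the 14 Snora genes (quartiles -0.39 and 0.10), against 0.01 for all 18993 genes tested. No test of a difference between the classes was made. The mean of the Snord genes was 0.11, of opposite sign to their median, and -0.06 without Snord72. Both rIL17 libraries were above both PBS libraries for 5 Snord and 1 Snora genes, which is 15.0% of the 40, against 25.4% of all genes tested and 25.0% of those with a mean of 1 to 100 normalized counts. Both were below for 5 Snord and 1 Snora genes, again 15.0%, against 21.0% of all genes and 14.4% of those with a mean of 1 to 100. With limma adjusted over all genes, 0 members were called, as were 0.00527% of all genes tested (Lcn2 alone). At an unadjusted p below 0.05 there were 7 members (17.5%), all Snord, 4 higher and 3 lower. Over all genes the share was 12.2% (7.88% higher and 4.29% lower). Limma-voom called 0 members and 42 of the 18993 genes, with 6 members at an unadjusted p below 0.05, against 14.0% of all genes. As the group was chosen from this contrast, nothing is read from these counts. Summed over the class, Snord genes had 281.5 and 267.8 normalized counts in rIL17, against 271.8 and 297.3 in PBS. Without Snord72 the sums were 231.2 and 222.6 in rIL17, against 269.8 and 296.3 in PBS. The groups overlapped with Snord72 and did not overlap without it. Snord72 was chosen as high in rIL17, so leaving it out lowers the rIL17 sums by more than the PBS sums. Snora genes summed to 201.1 and 206.6 in rIL17, against 231.5 and 215.8 in PBS, also without overlap. These Snora sums rest on 200 and 206 reads in rIL17 and on 236 and 217 in PBS. Such an order of the groups held for 21.0% of all genes tested. Nothing is read from the separation of the Snord or Snora sums, which was not tested. In bulk RNA, fewer cells that transcribe a gene and less RNA in each cell cannot be told apart.

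The replicates of members differed by more than counting error in PBS and by about counting error in rIL17. For members with at least 10 reads over the group, the chi-square statistic per gene between the replicates, which is 1 on average for counting error alone, had a mean of 1.31 in rIL17 (22 genes) and 2.47 in PBS (23 genes). Over all genes with that many reads it was 3.88 in rIL17 and 14.3 in PBS. In the PBS group the mean was 3.58 for the Snora genes, 2.33 without Snora41, and 1.76 for the Snord genes. The PBS medians were 1.60 for Snora and 1.10 for Snord, against 1.83 over all genes. The value of 1 for counting error holds for means and not for medians.

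Most members lie inside another gene, and the hosts of Snord72, Snord73a, Snord70 and Snord8 had log2 fold changes near 0. Of the 51, 13 lie within a ribosomal protein gene, 25 within another protein-coding gene and 8 within a non-coding gene; 5 have no host on the same strand, Snord104, Snora57, Snora17, Snora43 and Snord118. The hosts are 39 genes, of which 38 have a row in the table and were tested; Snhg9 is not analysed here. With limma adjusted over all genes, 0 of the 38 hosts passed, and 4 had an unadjusted p below 0.05, where 12.2% of all genes did (Rc3h2 higher, and Nop56, Kansl2 and 2410002F23Rik lower). Limma-voom called 0 of them, with 8 at an unadjusted p below 0.05, against 14.0% of all genes by that tool. Rpl37, the host of Snord72, had 12338.5 ± 309.7 normalized counts in rIL17 and 13702.0 ± 2549.4 in PBS (SD, n = 2 each), a log2 fold change of -0.14 (SE 0.13; limma adjusted p = 0.676). The values for other hosts were similar: Rps3a1 -0.05 (limma adjusted p = 0.785), Nop58 0.06 (0.905) and Chd8 0.01 (0.928). The signs for Rpl37 and Nop58 turned under some alternatives, within -0.33 to 0.29. Of the 38 hosts, 31 had a log2 fold change smaller than 0.25 in size. Across the 35 tested members with a host value, the log2 fold changes of snoRNA and host had a Pearson's r of -0.19 and a Spearman's rho of -0.21, and their mean levels a Pearson's r of 0.11 and a rho of 0.13. These points share libraries and some hosts and are not independent.

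**Figure D3:**
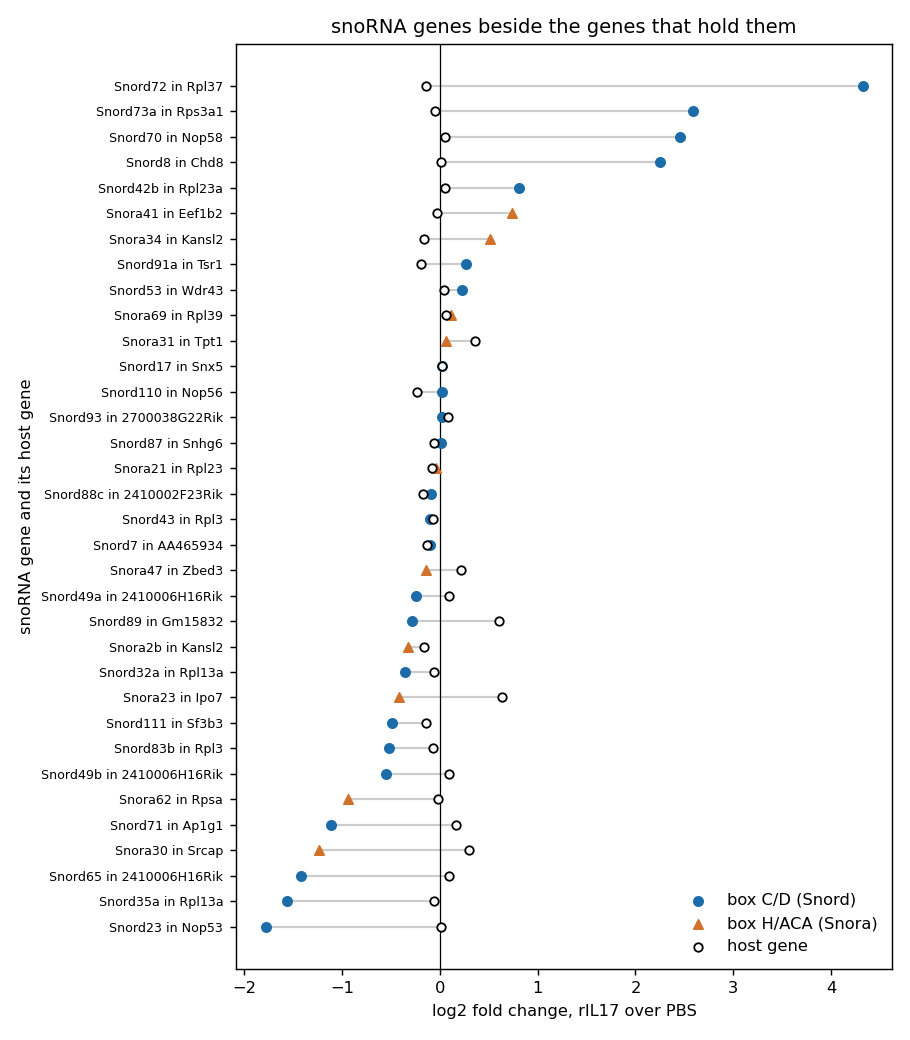
Log2 fold change (rIL17 over PBS) of 34 snoRNA genes, filled symbols, and of the gene that holds each, open circles, joined by a line. Most hosts lie near 0, as Rpl37 with Snord72 (4.32 for the snoRNA gene, -0.14 for the host) and Rpl13a with Snord35a (-1.57 and -0.06), while Ipo7, Gm15832, Tpt1 and Srcap lie between 0.30 and 0.64.

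SnoRNA genes that share a host can be compared within it. Nop58, a gene for a box C/D core protein, also holds Gm26287, an annotated snoRNA gene outside the 51, which had 5 and 8 reads in the rIL17 libraries and 0 in both PBS libraries. Both snoRNA genes of Nop58 in the table passed the filter through rIL17 alone, so nothing is read from their likeness. The GC content of Gm26287 was 38.3%. In Ipo7, the annotated snoRNA gene Gm25636, likewise without reads in PBS, had a log2 fold change of 1.80, while Snora23 had -0.42. In Rps3a1, Snord73a is neighboured by Rnu73b, which had 9.05 and 10.0 normalized counts in rIL17, against 7.85 and 7.96 in PBS. In Rpl13a, Snord32a had 2 and 3 reads in rIL17, against 3 and 4 in PBS, beside the wider difference of Snord35a. The 3 snoRNA genes of 2410006H16Rik (Snord49a, Snord49b and Snord65) had log2 fold changes of -0.24, -0.55 and -1.42, all with overlapping groups.

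Any relation of the members' log2 fold changes with GC content rested largely on Snord72 and on genes without reads in 1 group. The 6 tested members below 40% GC centred on a log2 fold change of 1.36 (median, 5 of 6 above 0), the 17 from 40% to 50% had -0.04, and the 17 at 50% or more had -0.28 (3 of 17 above 0). Of the 6, Snord72 was the gene that led to the choice, and Snord73a and Snord70 passed the filter through rIL17 alone; the other 3, Snord91a, Snora69 and Snora2b, had log2 fold changes of 0.26, 0.12 and -0.32. Across the 40 members Pearson's r between GC content and log2 fold change was -0.51 and Spearman's rho -0.42, and without Snord72 they were -0.40 and -0.38. Without the members that had no reads in 1 group either, r was -0.08 and rho -0.21 over 36 genes. Within the classes, r was -0.63 and rho -0.56 in the 26 Snord genes, and r was 0.0019 and rho -0.14 in the 14 Snora genes; the difference between the classes was not tested. Genes at large were higher in rIL17 at low GC content: those with a mean of 1 to 100 normalized counts had medians of 0.81 below 40% GC (773 genes), 0.08 from 40% to 50% and -0.07 at 50% or more. Over all 1315 tested genes below 40%, the median difference of PBS replicate 2 from PBS replicate 1 was -0.45 on the log2 scale, and the part of GC content and of that library in the members' values was not tested. The other annotated snoRNA genes had medians of 0.42, 0.10 and 0.02 in the same 3 ranges. Points share libraries and, in part, hosts, and genes are not independent replicates.

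**Figure D4:**
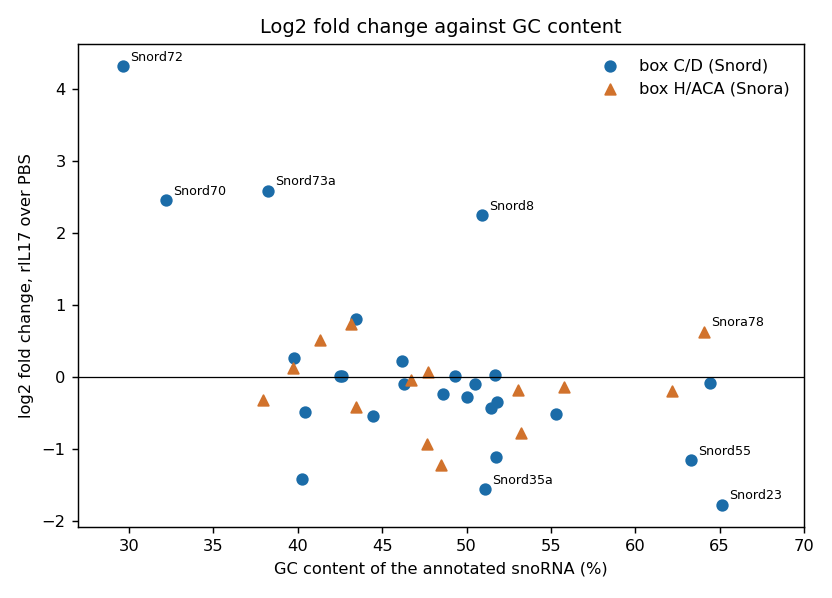
Log2 fold change (rIL17 over PBS) of the 40 tested snoRNA genes against the GC content of the annotated snoRNA, box C/D as blue circles and box H/ACA as orange triangles. Snord72 and Snord70, at 29.6% and 32.2% GC, are high, and Snord55 and Snord23, at 63.3% and 65.1%, are low, while Snord8 is high at 50.9%.

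Other short RNA genes are given for comparison. For the 105 tested snoRNA genes outside the 51 the median log2 fold change was 0.13, with both rIL17 libraries above both PBS libraries in 29.5% and below in 11.4%. The 77 tested genes annotated as snRNA had a median of 0.25 and the 129 microRNA genes 0.15. The 11 small Cajal body RNA genes, which guide modification of spliceosomal RNA, had -0.48. No test of a difference between these sets and the members was made. Of 9 other small RNA genes listed, Rn7sk and Terc had a row. Rn7sk, the RNA that holds the elongation factor P-TEFb inactive, had 16.1 and 11.0 normalized counts in rIL17, against 8.83 and 9.94 in PBS (limma adjusted p = 0.624).

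Transcripts of the genes for the snoRNA particle proteins were measured at high depth. None of the 8 core genes passed with limma adjusted over all genes, and limma-voom called 0. At an unadjusted p below 0.05 by limma there were 3 (Nop56, Nhp2 and Nop10, all lower in rIL17), against 12.2% of all genes. At that threshold limma-voom gave 1 of 4 box C/D and 3 of 4 H/ACA core genes, against 14.0% of all genes. Fbl, encoding the methylase fibrillarin, had a log2 fold change of -0.11 (limma adjusted p = 0.556), and Dkc1, encoding the pseudouridine synthase dyskerin, -0.03 (0.919). Nop56, a box C/D scaffold, had 5700 and 5349 normalized counts in rIL17, against 6302 and 6665 in PBS (log2 fold change -0.23, SE 0.06, limma adjusted p = 0.339). The H/ACA genes Nhp2, Nop10 and Gar1 had -0.26, -0.24 and -0.15, and the box C/D genes Snu13 and Nop58 -0.05 and 0.06. Of 15 tested assembly genes 0 passed with limma and 0 with limma-voom. There were 2 at an unadjusted p below 0.05 by limma and 4 by limma-voom, against 12.2% and 14.0% of all genes. The assembly genes with the smallest p were Nolc1, encoding a nucleolar chaperone (-0.22), Naf1, encoding an H/ACA assembly factor (0.61), and Npm1, encoding nucleophosmin (0.44). Of 9 genes for the RNA exosome and 3′ and 5′ end processing 0 passed with either tool, 0 at an unadjusted p below 0.05, and Tent4b, Xrn2 and Exosc10 had 0.20, 0.20 and -0.09. Among 15 tested non-coding hosts of snoRNAs 0 passed with either tool. At an unadjusted p below 0.05 there were 3 with limma and 5 with limma-voom, beside the shares of all genes given above. Snhg14 had 19.1 and 14.0 normalized counts in rIL17, against 3.92 and 1.99 in PBS (log2 fold change 2.18, limma adjusted p = 0.296). Snhg1 had a log2 fold change of 0.38 and Snhg17 of -0.20.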

How the data were processed

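Per the submitters' processing notes, reads were processed with CASAVA, HISAT2 2.0.5 and featureCounts 1.5.0-p3 on mm10; the annotation release, the strand setting and the handling of reads shared by several genes or places are not stated in those notes or in the labels. The deposited values are a normalized signal: all values were whole multiples (within 0.01) of 1 step per library, so reads were recovered as value divided by step. Symbols matched 21819 of 21840 rows. Hosts, exons and sequences come from GENCODE M21; a host is a gene on the same strand whose span holds the snoRNA, the most abundant protein-coding one where several do. The host of 1 member is not reported here. Of the members, 5 overlap an exon of another gene on the same strand.

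A filter on the mean over the 4 libraries (at least 1) kept 18993 genes, which were fitted with limma 3.58.1 (R 4.3.3), with a mean-variance trend, on log2 of the value plus a pseudocount of 1 and a single term for treatment, and called at a Benjamini-Hochberg adjusted p below 0.05. An earlier analysis had filtered by group means, which favours genes high in 1 group. Copies were sought with BLAST. Intervals cover counting error only. The floor of 3 reads stands for the group without reads, and the reads of the other group are taken as observed. The members and lists were chosen with earlier results of these data known. Named are Snord72, the 10 most abundant Snord and Snora genes each, the 6 largest changes in each direction among members with a mean of at least 10, their hosts, the core proteins and the 3 smallest p of each other list; all other members named, and the hosts and neighbours named with them, were chosen after their values were seen, as were the values without Snora41 and without members lacking reads in 1 group.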

Additional observations from a re-analysis of the deposited data

How the results depend on the processing

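When single libraries were dropped, the genes called ranged from 0 to 0, the members called from 0 to 0, the median of the Snord genes from -0.21 to 0.042, that of the Snora genes from -0.28 to 0.06, and their difference (Snord minus Snora) from -0.16 to 0.12, so the order of the classes is not settled. Members with groups apart ranged from 10 to 12 above and from 12 to 18 below, since 3 libraries separate more easily.

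The genes called, 1 by the main settings, were 5 with a pseudocount of 5, 0 without a filter, 103 with a mean of at least 10, 32 with upper-quartile and 25 with total-count scaling, 232 with the GC correction, 295 with robust shrinkage, 0 with the filter by group mean and 42 with limma-voom on recovered reads; the last 2 were added after seeing the data. Members called were 1, Snord72, with a mean of at least 10, upper-quartile scaling, total-count scaling, the GC correction (alone or with the block) and robust shrinkage; as this contrast led to its choice, these calls are no evidence for it. The Snord median was -0.17 without a filter, -0.17 with a mean of at least 10 (8 genes) and -0.14 with upper-quartile scaling. It was -0.12 with total-count scaling, -0.15 with the GC correction alone or with the block and -0.13 with limma-voom. The causes were not tested.

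Same-numbered libraries of the 2 groups share a number only; across genes their deviations correlated at 0.01, and at 0.13 over genes with a mean of at least 10. With the replicate number as a block 1 gene and 0 members were called, and 845 genes with the block and the GC correction. Of 20 tested named snoRNA genes, 13 changed sign under at least 1 of 16 alternatives. The planned edgeR and DESeq2 fits were not run: with steps this close to 1, the scaled values were not accepted as a table of counts, and limma-voom on recovered reads took their place. Depth limits most members: 3 reads are near 3 normalized counts.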
